A study of Mus musculus with 6 samples.

Results

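Acute phase proteins are plasma proteins whose output by the liver changes during inflammation, and 10 of their genes were examined in mouse liver: Saa1, Saa2, Saa3, Saa4, Orm1, Orm2, Hp, Lcn2, Apcs and Lbp. The members were taken by gene symbol from a table of normalised read counts, and all 10 were found among its 24501 genes. All 10 also had a mean of at least 10 over the libraries, as did 14385 genes in all, which were the genes tested. The livers were those of 6 C57BL/6J males, 3 per group, and every mouse had both copies of Gata4 floxed. Control mice received an adeno-associated virus of serotype 8 (AAV8) with no insert. The other group, labelled Gata4LKO, received the same type of virus carrying Cre recombinase, driven by the hepatocyte promoter Tbg. The labels put the injection at 8 weeks of age and give an age of 11 weeks, 3 weeks on a Western diet and a fast of 6 hours. They also carry a note of 7 days between injection and euthanasia, and refed mice are named in the series text but in no sample label. The empty virus carries no Cre, so Cre itself and the loss of Gata4 cannot be told apart in this design.

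In an acute phase response, interleukin-6 acts through STAT3, and interleukin-1 and tumour necrosis factor through NF-kB, on hepatocyte genes that also need C/EBP factors. The serum amyloid A genes Saa1 and Saa2 are the classical strongly inducible members in the mouse, whereas Saa4 is expressed constitutively and Saa3 is also made outside hepatocytes, in macrophages and adipose tissue. Orm1 and Orm2 encode alpha-1-acid glycoproteins, and Hp encodes haptoglobin, which binds free haemoglobin. Lcn2 encodes lipocalin 2, which binds iron-loaded bacterial siderophores and is also abundant in neutrophils. Apcs encodes serum amyloid P component, a pentraxin, and Lbp the protein that hands bacterial lipopolysaccharide to CD14.

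The libraries held 33274223 to 37390345 reads, and the members took 0.325% to 0.489% of them. The targeted gene went against the labels: Gata4 stood at 704, 637 and 546 normalised reads for the Control mice, beside 867, 848 and 895 for those labelled Gata4LKO. The log2 fold change was 0.47 (SE 0.10, limma adjusted p = 0.0641). The adjusted p was 0.0576 by edgeR and 0.00726 by DESeq2, and 0.00810 in the authors' deposited table. No Gata4LKO value was below a control value, and the counts cover the whole gene without separating deleted from retained exons. Each direction given for the libraries labelled Gata4LKO therefore rests on the labels. Summed markers of some other liver cells moved with the groups as well. The macrophage, stellate, endothelial, neutrophil and adipocyte sums did not overlap between the groups. The cholangiocyte, recruited monocyte, and T and B cell sums overlapped. The sum of 12 macrophage markers ran from 4024 to 9309 normalised reads in the controls and from 11128 to 22649 in the libraries labelled Gata4LKO, and that of 4 stellate cell markers from 2851 to 7157 and from 8052 to 10443. By limma, edgeR and DESeq2 0 of the 4 stellate markers passed, where 2.06%, 1.97% and 9.48% of all genes tested did. All 4 had an unadjusted limma p under 0.05, as did 22.4% of all genes tested. Of 4 endothelial markers 3 were higher (Pecam1, Clec4g and Kdr, by limma), with sums of 3043 to 3860 and 5131 to 6375, and none of the 3 kept its call without Control replicate 3, Gata4LKO replicate 1 or Gata4LKO replicate 3. The 7 hepatocyte markers summed to 2969242 to 4077166 normalised reads in the controls and to 2243605 to 2720271 in the other group. Most of that sum was Alb, with means of 2447697 and 1603350.3 (limma adjusted p = 0.434, DESeq2 adjusted p = 0.00538). Of the 7, only Serpina1a was lower by limma (log2 fold change -0.44, adjusted p = 0.0369), a call that held in a single one of the 6 fits with 1 library left out, that without Control replicate 2. Cyp2e1, another of them, was higher in each library labelled Gata4LKO than in any control, without passing (0.654). Fewer cells of a type and less RNA per cell cannot be told apart in bulk liver.

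None of the 10 acute phase genes passed the test between the groups (limma on log2(value + 1), Benjamini-Hochberg adjusted p under 0.05 over all genes tested), where 2.06% of all genes tested did (1.13% higher and 0.932% lower in the libraries labelled Gata4LKO). At an unadjusted p under 0.05 there was 1 of 10, Orm1, where 22.4% of all genes tested were past that limit. edgeR on the recovered reads called 0 of 10, where it called 1.97% of all genes. DESeq2 on the recovered reads called 1 of 10, Orm1, where it called 9.48% (5.97% higher and 3.51% lower). For 2 members, Orm1 and Hp, no value of one group lay within the range of the other, as for 28.3% of the genes tested. The median log2 fold change of the members was 0.16, with 7 values above and 3 below 0, beside a median of -0.01 over all genes tested. The p-values here measure the spread between mice, 1 library each.

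**Figure D1:**
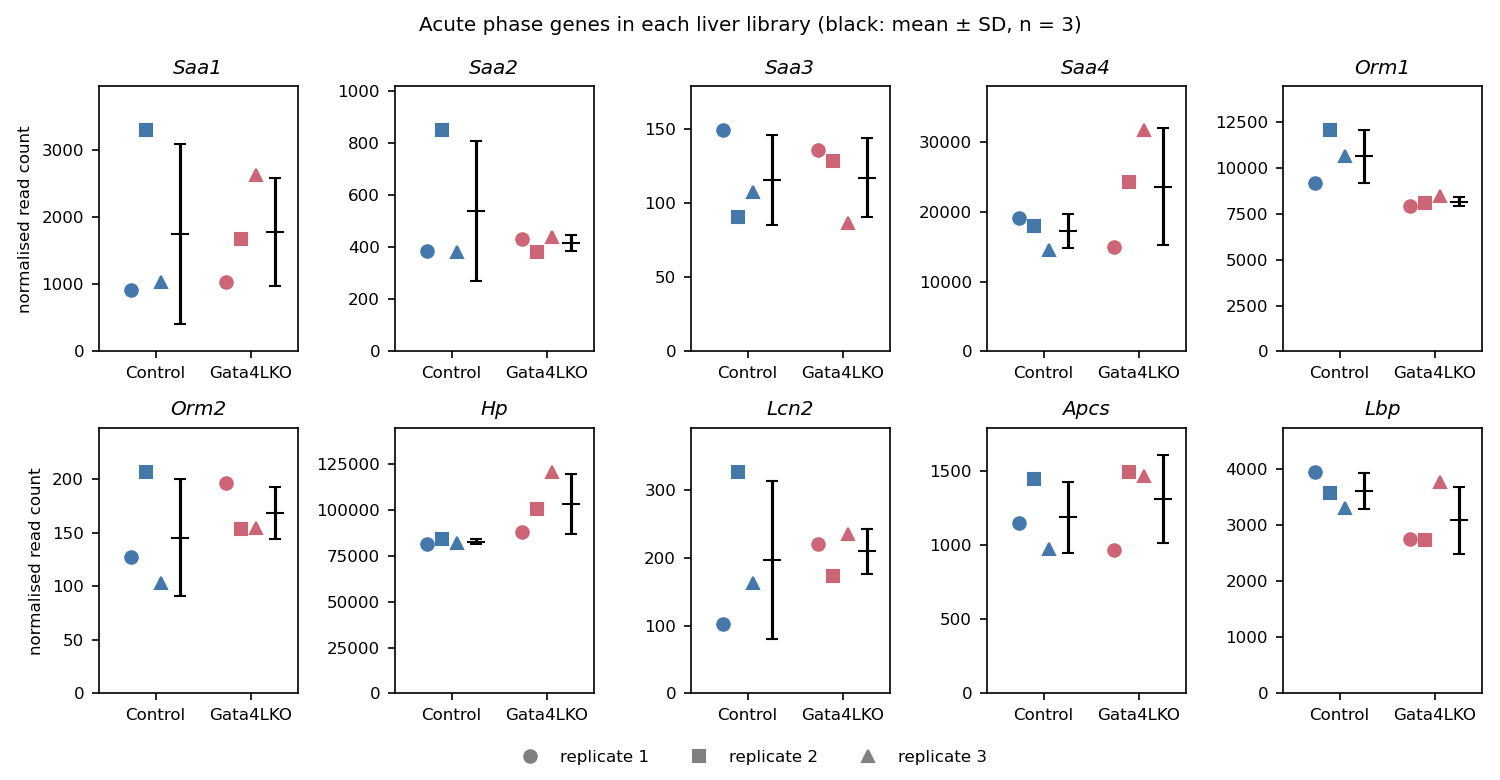
Normalised read counts (vertical axes, each from 0) of the 10 acute phase genes in 3 Control (blue) and 3 Gata4LKO (red) liver libraries, with the group mean ± SD in black. Replicate numbers name mice and pair none. Control replicate 2 stands highest for Saa1, Saa2, Orm1, Orm2 and Lcn2, and the groups are apart for Orm1 and Hp.

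Levels between genes were compared per length, as normalised reads per kilobase of the principal mRNA. Hp stood first at a mean of 69037 over the 6 libraries, from 60597 to 89636. Orm1 and Saa4 followed at 12112 and 9749. This pair was not separated, since Orm1 was above Saa4 in 4 of 6 libraries. Saa1 came next at 2901, above Lbp in 5 of 6 libraries. Lbp at 1324 and Apcs at 1284 could not be ordered, with Lbp higher in 3 of 6 libraries. Saa2 at 734 was below Apcs in all 6 libraries. Lcn2, Saa3 and Orm2 were lowest at 222, 209.7 and 203, and their order was not held across mice, with Lcn2 above Saa3 in 2 of 6 libraries and Saa3 above Orm2 in 3 of 6. In reads, the thinnest value behind any member was 87, for Saa3, and the largest 127629, for Hp.

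Saa1 and Saa2 lie next to each other on chromosome 7 in opposite orientation. Saa1 (ENSMUSG00000074115) runs from 46740497 to 46742980 on the minus strand and Saa2 (ENSMUSG00000057465) from 46751790 to 46754313 on the plus strand, in mm10. Their upstream windows are shown because the 2 genes shared their highest library while Saa3 and Saa4, from the same cluster, did not. Each window holds the 250 bases before the RefSeq start site (GRCm38.p6), at chr7:46742981-46743230 (minus strand) for Saa1 and chr7:46751583-46751832 (plus strand) for Saa2. Capitals mark matches to the C/EBP motif TTNNGNAA on either strand.
Saa1: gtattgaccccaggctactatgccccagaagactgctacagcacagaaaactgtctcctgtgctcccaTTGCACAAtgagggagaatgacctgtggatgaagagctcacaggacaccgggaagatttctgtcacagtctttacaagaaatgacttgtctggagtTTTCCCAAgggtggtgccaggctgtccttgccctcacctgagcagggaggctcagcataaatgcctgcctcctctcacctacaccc
Saa2: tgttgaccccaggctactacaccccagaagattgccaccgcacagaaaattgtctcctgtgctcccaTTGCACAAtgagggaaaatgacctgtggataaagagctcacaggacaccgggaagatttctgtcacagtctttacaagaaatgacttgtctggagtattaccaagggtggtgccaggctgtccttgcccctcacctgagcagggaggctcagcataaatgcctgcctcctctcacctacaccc
The 2 windows were identical at 238 of 251 aligned positions (94.8%). Both held the match TTGCACAA, which begins 182 bases before the start of Saa1 and 183 before that of Saa2. A second match, TTTCCCAA at 86 bases before the start, was in the Saa1 window and not in that of Saa2.

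Saa1 stood at 917, 3302 and 1037 normalised reads for Control replicates 1, 2 and 3, beside 1035, 1679 and 2629 for Gata4LKO replicates 1, 2 and 3, the order kept for every gene. The groups overlapped throughout, with 1 high mouse among the controls and a graded spread in the other group. The means were 1752 ± 1344 and 1781 ± 802 (SD, n = 3 each), and the log2 fold change was 0.18 with a 95% interval from -1.02 to 1.38 (limma adjusted p = 0.879). Leaving out Control replicate 2 raised this value to 0.77. Its sign turned when Control replicate 1 (-0.16), Control replicate 3 (-0.07) or Gata4LKO replicate 3 (-0.15) was left out, and none of these fits called it.

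Saa2 followed Saa1 in the controls and not in the other group. Its normalised reads were 385, 851 and 382 for the Control mice, beside 434, 383 and 438 for those labelled Gata4LKO. Control replicate 2 was again the highest of all, and the other 5 libraries lay close together. The log2 fold change was -0.26 (SE 0.29, 95% interval -0.94 to 0.42, limma adjusted p = 0.656), and it was 0.12 without Control replicate 2. Per length, the ratio of Saa1 to Saa2 was 2.55, 4.15 and 2.91 for the Control mice, beside 2.56, 4.69 and 6.42 for those labelled Gata4LKO, so it was not fixed across mice. The principal mRNAs share letters, which can move reads from one gene to the other: 13.2% of the 50-base windows of Saa1 occur in Saa2, and 9.12% of those of Saa2 in Saa1. Summed, the pair had 1301, 4153 and 1419 normalised reads for the Control mice, beside 1469, 2063 and 3067 for those labelled Gata4LKO. That sum had a log2 fold change of 0.09 (95% interval -0.97 to 1.15, limma adjusted p = 0.931), which was negative by edgeR and DESeq2, at -0.052 and -0.057. It was negative too without Control replicate 1 (-0.21), Control replicate 3 (-0.14) or Gata4LKO replicate 3 (-0.18).

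Saa4 (ENSMUSG00000040017, chromosome 7, 46727998 to 46732603, minus strand) was the most abundant member of the serum amyloid A family per length in all 6 libraries. It had 19161, 18009 and 14511 normalised reads for the Control mice, beside 14950, 24188 and 31662 for those labelled Gata4LKO. Of the latter, replicate 1 was within the control range and the other 2 above it. The means were 17227 ± 2422 and 23600 ± 8371 (SD, n = 3), and the log2 fold change of 0.40 had a 95% interval from -0.20 to 0.995 (limma adjusted p = 0.402). It ranged from 0.15 without Gata4LKO replicate 3 to 0.69 without Gata4LKO replicate 1. The ratio of Saa4 to Saa1 per length was lowest in Control replicate 2, at 1.59, and 3.50 to 6.08 in the other libraries.

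The Saa4 window is shown as the constitutive contrast to the Saa1 pair. It covers the 250 bases before the RefSeq start, at chr7:46732604-46732853 on the minus strand of GRCm38.p6, with C/EBP matches in capitals.
Saa4: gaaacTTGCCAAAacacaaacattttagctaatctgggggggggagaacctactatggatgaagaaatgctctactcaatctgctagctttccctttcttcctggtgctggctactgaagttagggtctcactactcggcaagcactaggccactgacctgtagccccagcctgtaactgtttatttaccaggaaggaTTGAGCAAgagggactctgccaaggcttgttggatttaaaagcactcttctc
Its matches, TTGCCAAA and TTGAGCAA, begin 245 and 52 bases before the start, and the window was identical to that of Saa1 at 49.5% of aligned positions.

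RefSeq windows were matched for 7 of the 10 members, Saa1 to Saa4, Orm2, Lcn2 and Apcs. The C/EBP motif was in 6 of these 7, all but Apcs, and in 36.8% of 32851 promoter windows of the same length. The windows of Saa1 and Saa2, 94.8% identical and with a match in common, are counted separately here. The STAT motif TTCNNNGAA was in 1 of 7, Apcs, against 7.02% of all windows. The NF-kB consensus was in 0 of 7, against 7.25%. Matches to GATA with A or T before it and A or G after it were in 3 of 7, those of Saa3, Orm2 and Apcs, against 26.5% of all windows. In Saa3 the GATA match shares 1 end with a C/EBP match. These are letter matches on either strand of a short window, and none was tested as a binding site.

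Saa3 (ENSMUSG00000040026, chromosome 7, 46711998 to 46715700, minus strand) had 149, 90.4 and 107 normalised reads for the Control mice, beside 136, 128 and 86.9 for those labelled Gata4LKO. The groups had nearly the same range, and the library highest for Saa1, Control replicate 2, was the lowest control here. The log2 fold change was 0.02 (SE 0.25, 95% interval -0.56 to 0.60, limma adjusted p = 0.971), and its sign turned with quantile normalisation and with library weights, at -0.11 each. The sign also turned without Control replicate 2 (-0.14), Control replicate 3 (-0.01), Gata4LKO replicate 1 (-0.10) or Gata4LKO replicate 2 (-0.06), and the value was 0.22 without Gata4LKO replicate 3. The macrophage markers had a median log2 fold change of 1.25, and 10 of 12 did not overlap between the groups, where 28.3% of all genes tested did not. By limma 0 of these 12 passed, with 12 at an unadjusted p under 0.05, 0 by edgeR and 9 by DESeq2. Over all genes tested, 22.4% had such an unadjusted p, and 1.97% and 9.48% passed by edgeR and DESeq2. Without Control replicate 2, limma called 8 of the 12 macrophage markers, and with library weights 6. Their part in the Saa3 level was not tested.

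Lcn2 (ENSMUSG00000026822, chromosome 2, 32384633 to 32388252, minus strand) had 102, 326 and 163 normalised reads for the Control mice, beside 221, 173 and 235 for those labelled Gata4LKO. All 3 of the latter lay inside the control range, whose upper end was again Control replicate 2. The log2 fold change was 0.24 (SE 0.38, 95% interval -0.65 to 1.13, limma adjusted p = 0.761). Leaving out Control replicate 2 gave 0.69, and leaving out Control replicate 1 gave -0.15. Neutrophil markers had few reads: S100a8, Retnlg, Mpo and Cxcr2 stayed under 10 reads in every library and S100a9 had at most 22. Elane, Ngp and Ltf did not stay under 10 reads in every library, and Ly6g and Camp were not analysed here. The neutrophil markers still summed to 38.3 to 97.7 normalised reads for the Control mice and 113 to 133 for the other group, with up to 92 reads of Csf3r. Only 2 of these markers were tested. Of the 2, 1 did not overlap between the groups, where 28.3% of all genes tested did not. By limma and edgeR 0 of the 2 passed and by DESeq2 1, where 2.06%, 1.97% and 9.48% of all genes tested did. The part of neutrophils in the Lcn2 level was not tested.

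**Figure D2:**
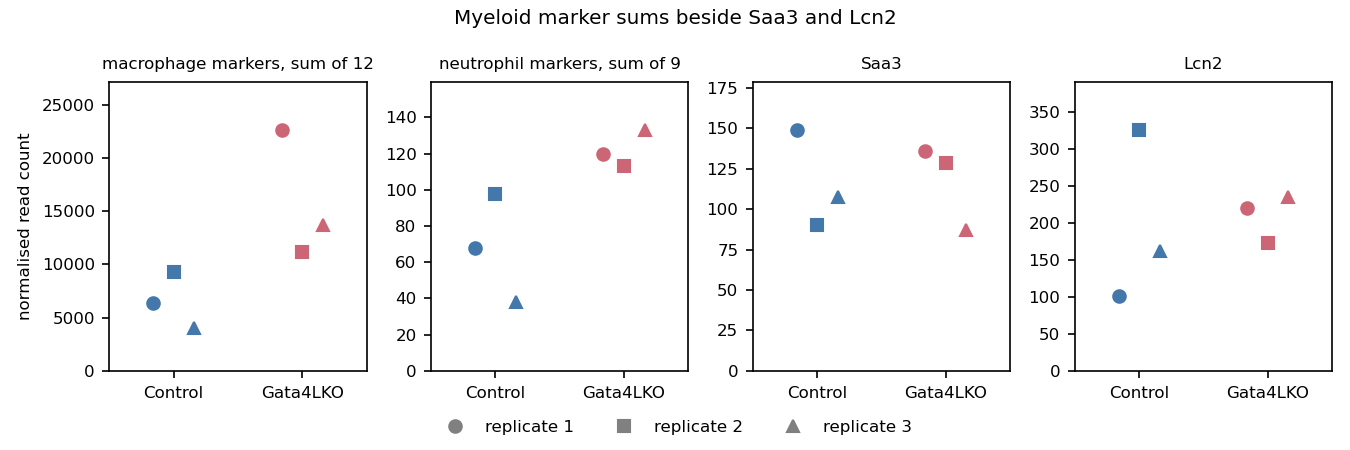
Normalised read counts (vertical axes, from 0) summed over 12 macrophage and 9 neutrophil markers, beside Saa3 and Lcn2, in 3 Control (blue) and 3 Gata4LKO (red) libraries. Both marker sums are higher in each Gata4LKO library than in any control, while Saa3 and Lcn2 overlap between the groups. Only 2 of the 9 neutrophil markers were tested. By limma 0 genes of either list passed, where 2.06% of all genes tested did.

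Orm1 (ENSMUSG00000039196, chromosome 4, 63344560 to 63348163, plus strand) came closest to the threshold. It had 9161, 12045 and 10655 normalised reads for the Control mice, beside 7933, 8088 and 8438 for those labelled Gata4LKO. Every control was above every library of the other group, which varied little among themselves. The means were 10620.4 ± 1443 and 8153 ± 259 (SD, n = 3), and the log2 fold change of -0.37 (SE 0.10, unadjusted 95% interval -0.62 to -0.13) missed the threshold (limma adjusted p = 0.0993). An exact permutation test (two-sided) gave 0.1, which 3 against 3 libraries cannot go below. DESeq2 on the recovered reads called it (adjusted p = 0.0238) and edgeR did not (0.110). In the authors' deposited table Orm1 had a log2 fold change of -0.38 and an adjusted p of 0.0254, the only member under 0.05 there, where 9.41% of genes with an adjusted p were. Over all alternatives the value stayed between -0.48 and -0.28, with adjusted p from 0.0238 to 0.220.

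Orm2 (ENSMUSG00000061540, chromosome 4, 63362449 to 63365878, plus strand) lies in the same cluster at a far lower level. Its normalised reads were 128, 207 and 103 for the Control mice, beside 196, 154 and 155 for those labelled Gata4LKO. The other group lay within the control range, and the log2 fold change was 0.26 (95% interval -0.34 to 0.86, limma adjusted p = 0.606). It was 0.04 without Control replicate 3 and was 0.54 without Control replicate 2. Per length, Orm1 exceeded Orm2 by 58.3-fold to 104-fold in the controls and by 40.4-fold to 54.5-fold in the libraries labelled Gata4LKO. These ratios did not overlap, where the values of 28.3% of single genes tested did not, and they rest on 110 to 199 reads of Orm2. The ratios of Saa1 to Saa2 and of Saa4 to Saa1 did overlap. Reads can be shared here too, since 20.4% of the 50-base windows of either mRNA occur in the other. For both genes summed, the log2 fold change was -0.36 (SE 0.11, limma adjusted p = 0.106).

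Hp (ENSMUSG00000031722, chromosome 8, 109575128 to 109579172, minus strand) took 67.9% to 75.5% of all reads of the 10 members. Its normalised reads were 81504, 84242 and 82147 for the Control mice, beside 87983, 100692 and 120560 for those labelled Gata4LKO. The controls differed by 1.03-fold at most, and each of the other libraries was above all of them. With means of 82631 ± 1432 and 103079 ± 16419 (SD, n = 3), the log2 fold change was 0.31 (SE 0.14, 95% interval -0.03 to 0.64) and did not pass (limma adjusted p = 0.257, exact permutation p = 0.1). Without Gata4LKO replicate 3, the highest library for both Hp and Saa4, it was 0.19. Haptoglobin's scavenger receptor gene Cd163, carried by macrophages, had 245 ± 72.2 and 583 ± 209 normalised reads (limma adjusted p = 0.0852).

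Apcs (ENSMUSG00000026542, chromosome 1, 172893961 to 172895041, minus strand) had 1145, 1443 and 972 normalised reads for the Control mice, beside 966, 1490 and 1466 for those labelled Gata4LKO. Each group held low and high mice over the same range. The log2 fold change was 0.13 (95% interval -0.34 to 0.60, limma adjusted p = 0.754), and it was -0.0034 without Control replicate 3.

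Lbp (ENSMUSG00000016024, chromosome 2, 158306493 to 158332852, plus strand) had 3942, 3566 and 3308 normalised reads for the Control mice, beside 2743, 2736 and 3769 for those labelled Gata4LKO. Of the libraries labelled Gata4LKO, 2 were below every control and replicate 3 was inside the control range. The log2 fold change was -0.24 (SE 0.14, 95% interval -0.56 to 0.08, limma adjusted p = 0.346), and -0.39 without Gata4LKO replicate 3. The intervals of Orm1, Lbp and Hp were the narrowest of the 10. The widest were those of Saa1, from 0.492-fold to 2.61-fold, and Lcn2, from 0.638-fold to 2.19-fold.

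**Figure D3:**
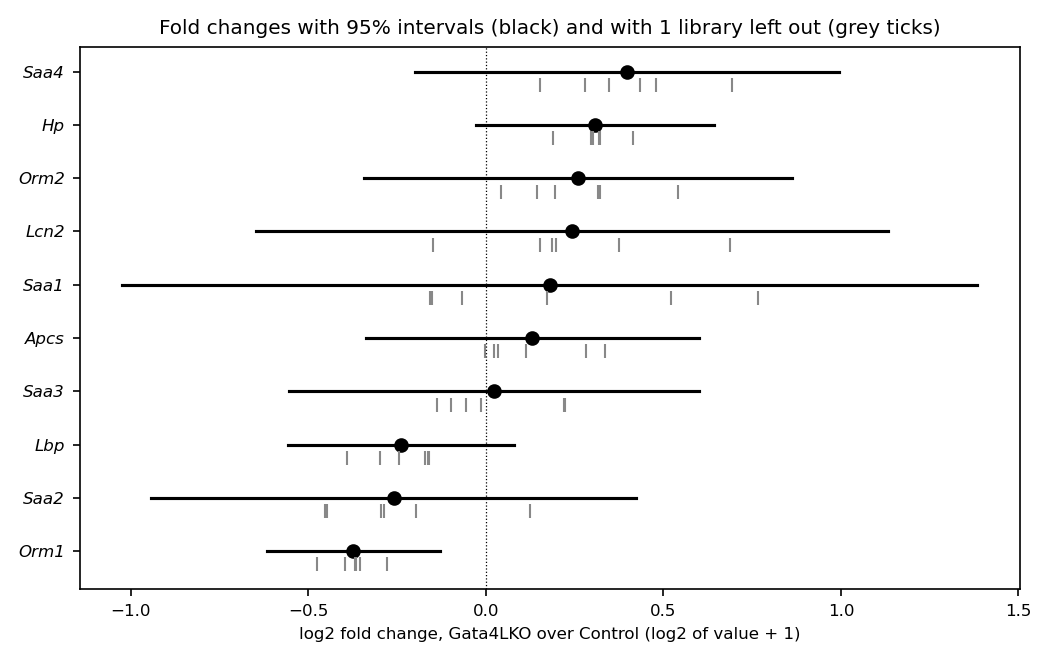
Log2 fold change of each acute phase gene, Gata4LKO over Control, on the log2(value + 1) scale (horizontal axis). Black points and lines are the limma estimate and its unadjusted 95% interval, and grey ticks the 6 estimates with 1 library left out. The interval of Orm1 alone stays on one side of 0, and the ticks of Saa1, Saa2, Saa3, Lcn2 and Apcs fall on both sides.

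The spread between mice of a group was wide for most members. The residual SD, the spread of log2(value + 1) around the group means, had a median of 0.37 over the 10 members and of 0.17 over all genes tested. It was above the median of all genes for 8 members, and for 6 of them it was larger than for at least 77.4% of genes. Saa1 had the widest spread at 0.86, larger than for 97.3% of genes, then Lcn2 at 0.62 (92.7%) and Saa2 at 0.47 (86.3%). Orm1 and Hp, at 0.14 and 0.16, were below the median of all genes. These are descriptions from 6 mice.

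**Figure D4:**
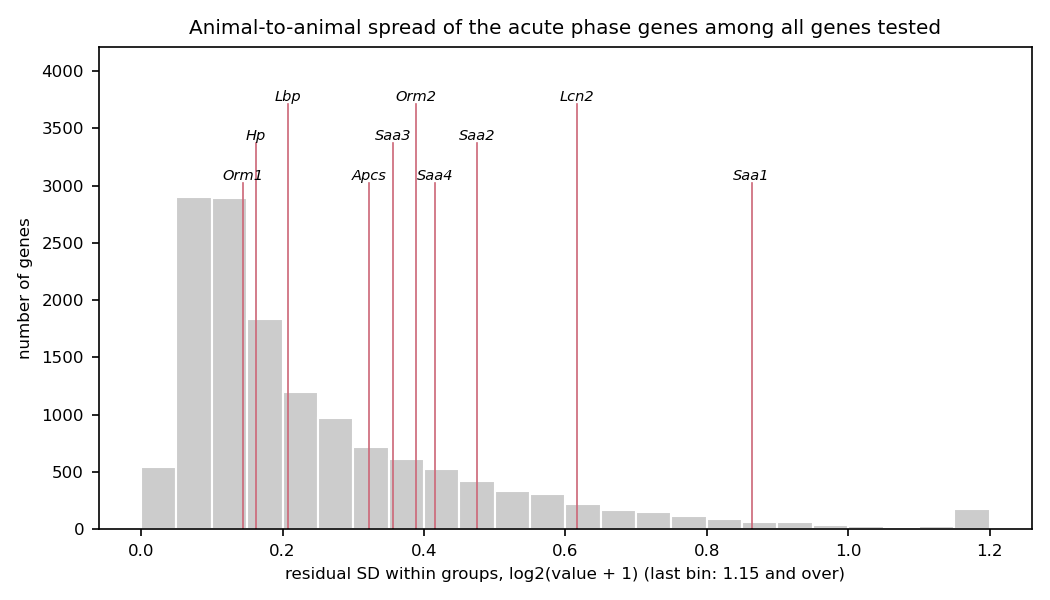
Histogram of the residual SD within groups on the log2(value + 1) scale (horizontal axis) over all 14385 genes tested (grey bars, number of genes), with red lines at the 10 acute phase genes. Saa1 and Lcn2 lie far in the right tail, and Orm1 and Hp in the bulk of the genes.

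The libraries ranked differently for different members. Control replicate 2 was the highest of the 6 for 5 members, Saa1, Saa2, Orm1, Orm2 and Lcn2, and the lowest for none. Relative to the control mean it stood at 1.17 for Saa1, 0.89 for Lcn2, 0.77 for Saa2, 0.56 for Orm2 and 0.19 for Orm1 on the log2 scale. It was at -0.32 for Saa3 and close to 0 for Saa4, Hp and Lbp. Gata4LKO replicate 3 was the highest for Saa4 and Hp, at 0.89 and 0.55. It was second for Saa1, Lcn2, Apcs and Lbp, at 0.84, 0.42, 0.32 and 0.07. The same library was the lowest for Saa3, at -0.38, and second for Saa2 as well, though below the control mean at -0.19.

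**Figure D5:**
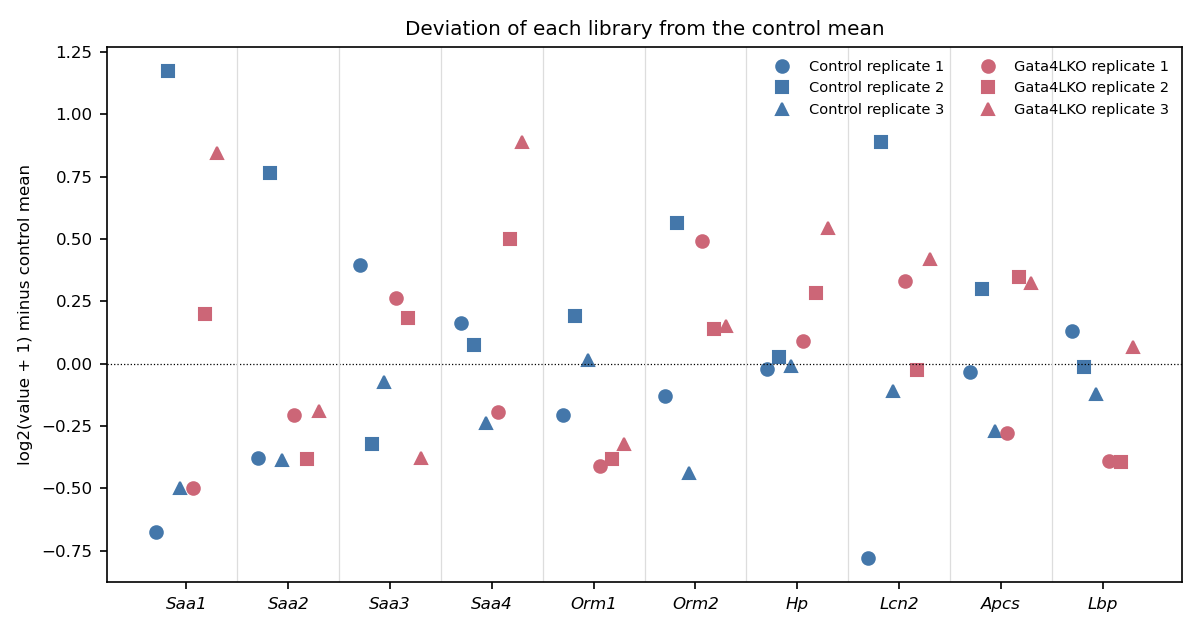
Deviation of each library from the control mean in log2(value + 1) (vertical axis) for the 10 acute phase genes, with Control libraries in blue and Gata4LKO libraries in red. The blue square, Control replicate 2, is the highest point for 5 genes, and the red triangle, Gata4LKO replicate 3, for Saa4 and Hp.

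Genes of like pattern were sought among 10854 genes with a mean of at least 50, by the root mean square difference between centred log2(value + 1) profiles over the 6 libraries. Nearest to Saa1 were Ppp1r10 and Fut8, at 0.29 and 0.32 beside a spread of 0.71 for Saa1 itself. For Saa2 they were Ptp4a1 and Rnd1 (0.12 and 0.14, beside 0.41). Saa4 was nearest to Smad3 (0.10, beside 0.39) and Hp to Mideas (0.05, beside 0.20), and Lcn2 to Fam83f and Irs2 (0.23 each, beside 0.52). Orm1 was nearest to Med31 and Morc3 (0.04 and 0.05, beside 0.22). With 6 libraries and this many genes, close profiles are a description only.

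Of 33 other positive acute phase genes tested, 3 were lower and 1 was higher in the libraries labelled Gata4LKO by limma, and the median over the list was -0.02 on the log2 scale. The protease inhibitor genes Serpina3m and Serpina3f fell by 1.18 and 1.73 on the log2 scale (adjusted p = 0.0373 and 0.0351), and Mbl2, a mannose-binding lectin of the complement system, fell by 0.65 (0.0321). Vnn1, a pantetheinase, rose by 1.97 (0.0376). Hamp, which encodes the iron hormone hepcidin, had 17884 ± 5609 and 8998 ± 298 normalised reads without passing by limma (0.0595). DESeq2 called Hamp lower (adjusted p = 4.81e-05). C3, the gene of the list with the most normalised reads, not compared per length, had a log2 fold change of 0.08. Leaving out Control replicate 1, 2 or 3 turned the count of 4 into 1, 5 or 1, and leaving out Gata4LKO replicate 1, 2 or 3 turned it into 3, 1 or 0. By edgeR 4 passed and by DESeq2 13, where 1.97% and 9.48% of all genes tested did. Serpina3m and Serpina3f belong to a cluster of close relatives whose reads may be split. Serpina3g and Serpina3n of that cluster, named outside the rule, had 1.21 and 0.38, without passing by limma (0.0607 and 0.131). DESeq2 called both higher (adjusted p = 0.000621 and 0.0490).

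Orm3, a further gene of the Orm cluster that was named after its values were seen, stood at 54.5, 308 and 78.5 normalised reads for the Control mice, beside 31.7, 18.1 and 37.8 for those labelled Gata4LKO. It did not pass by limma (log2 fold change -1.94, adjusted p = 0.125) and was called by DESeq2 (0.00242). Control replicate 2 carried the control mean, which was 147 with it and 66.5 without it, where the log2 fold change was -1.20 (limma adjusted p = 0.116). Crp, the other short pentraxin beside Apcs and likewise chosen after its values were seen, had a log2 fold change of -0.34 (0.178).

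Of 15 genes that fall in an acute phase response, 1 was higher, Serpina7, which encodes thyroxine-binding globulin and rose by 1.95 on the log2 scale (limma adjusted p = 0.0169). Ttr, Trf and Apoa1, carriers of thyroid hormone, iron and lipid, did not pass by limma, at -0.49, -0.31 and -0.59 on the log2 scale (0.0996, 0.0999 and 0.115). Cyp8b1, a bile acid enzyme gene, had 0.49 (0.122), and Alb, with the most normalised reads, -0.59 (0.434). The list's median was -0.13. Serpina7 lost its call without Control replicate 3 (0.0553) and without Gata4LKO replicate 3 (0.0597). By edgeR 1 of the 15 passed and by DESeq2 6, 2 higher and 4 lower, where 1.97% and 9.48% of all genes tested did. DESeq2 called Ttr, Trf, Apoa1 and Alb lower (adjusted p = 8.92e-07, 0.0134, 1.03e-05 and 0.00538) and Cyp8b1 higher (0.0200).

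Of 35 regulators tested, 0 passed by limma and by edgeR, 4 passed by DESeq2 and 10 had an unadjusted limma p under 0.05. Over all genes tested, 9.48% passed by DESeq2 and 22.4% had an unadjusted limma p under 0.05. The median log2 fold change of the regulators was -0.01. The interleukin-6 family receptors Osmr and Il6st, for oncostatin M and the shared signalling chain, had 1.08 and 0.32 (adjusted p = 0.0694 and 0.0891). Cebpa and Cebpd, C/EBP factors, had -0.42 and 0.82 (0.0721 and 0.126), and Cish, a feedback inhibitor of cytokine signalling, had -2.78 (0.0775). DESeq2 called Osmr, Il6st and Cebpd higher (adjusted p = 0.00508, 0.0217 and 0.0156) and Cebpa lower (0.00269). Hnf4a, with the most normalised reads, had -0.18, and Stat3, named outside the rule, -0.01 with a standard error of 0.09. The cytokine genes Il6, Tnf and Osm were under the filter, with at most 5, 12 and 3 reads in any library. The interleukin-1 genes Il1b and Il1a, also named outside the rule, were tested, with 6 to 65 and 49 to 114 reads. They had 1.51 and 0.69, without passing by limma (adjusted p = 0.179 and 0.199).

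Of 20 partners and receptors of the members, 1 was higher by limma: Fcgr2b, an inhibitory receptor for antibodies, of a family that also binds pentraxins, rose by 0.52 (adjusted p = 0.0376). It kept its call without Control replicate 2 and lost it without any other single library (0.0779 to 0.145). Cd36, a scavenger receptor, Cd14, the partner of Lbp, and Tlr2 did not pass, at 1.70, 1.41 and 0.80 on the log2 scale (0.0641, 0.0964 and 0.0984), as did Cd163 with 1.21. Apoe, with the most normalised reads, had -0.07. By edgeR 1 passed and by DESeq2 9, where 1.97% and 9.48% of all genes tested did. Over the list the median log2 fold change was 0.70, and several of its genes are carried by macrophages, whose marker sums are given above with the libraries and whose part was not tested.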

How the data were processed

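Liver RNA (TRIzol, then RNeasy columns) went into stranded libraries after mRNA capture, per the labels' protocols. FastQC, STAR 2.6.0c, DESeq2 and the mm10 build are named, per the submitters' processing notes. Which counter, strand setting and annotation made the counts is not given in the sources used here. The authors deposited a signal per gene, which is a read count divided by 1 factor per library: 100% of values lay within 0.1 of a whole multiple of the column's step, and dividing by it recovered whole reads, on which edgeR called 284 genes and DESeq2 1364. The authors deposited, in a second table, a log2 fold change with its standard error and a p-value and adjusted p-value per gene.

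Replicate numbers follow the accessions and pair nothing, each library is from its own mouse, and no 2 libraries agreed within counting noise. Limma 3.58.1 in R 4.3.3, with an intensity trend and no covariate, was fitted to log2(value + 1) of the 14385 genes with a mean of at least 10. Tests were two-sided, with Benjamini-Hochberg adjustment over these genes and a threshold of 0.05. Fold changes on this scale understate the change of low genes. The exact permutation test was run on each member. edgeR 4.0.16 and DESeq2 1.42.0 were run on the recovered reads as alternatives, beside other pseudocounts, filters, scalings and variance settings, the summed gene pairs and each library left out. Scripts were tested on simulated data.

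Coordinates, mRNA lengths (the longest APPRIS principal transcript) and shared windows are from GENCODE M21, on the same assembly, in which 24480 gene identifiers were found. No other annotated gene overlaps a member. Windows before start sites are from RefSeq (GRCm38.p6). The members and gene lists were chosen with earlier results of these data known. In each list, genes past the threshold, up to 5 of smallest adjusted p and the gene with the most normalised reads were named. For each member the 2 genes of most like pattern were sought, of which some are printed.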

Additional observations from a re-analysis of the deposited data

How the results depend on the processing

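No member was called under any of the 19 alternatives except Orm1 by DESeq2 on the recovered reads, at a log2 fold change of -0.38 (adjusted p = 0.0238), so that the count of members called was 1 there. The sum of Orm1 and Orm2 was called there too, at -0.37 (0.0300). Saa4, Orm1, Orm2, Hp and Lbp kept their direction throughout. Saa3 turned negative with quantile normalisation and with library weights (-0.11 and -0.11), and the sum of Saa1 and Saa2 did so by edgeR and DESeq2 (-0.052 and -0.057). With 1 library left out, the log2 fold change ranged from -0.16 to 0.77 for Saa1, -0.45 to 0.12 for Saa2, -0.14 to 0.22 for Saa3, -0.15 to 0.69 for Lcn2, -0.0034 to 0.34 for Apcs and -0.21 to 0.63 for the summed Saa1 and Saa2. Over all genes 296 were called (162 higher, 134 lower), against 458 with equal library sums (328 higher, 130 lower), 25 without the variance trend, 841 with library weights, 1364 by DESeq2 (859 higher, 505 lower) and 27 to 794 with 1 library left out. The other positive acute phase genes called were 4, against 0 without the trend, 13 by DESeq2 and 0 to 5 with 1 library left out. Negative acute phase genes called were 1, against 0 without the trend, 3 with robust variance, 6 by DESeq2 and 0 to 2. Regulators called were 0, against 1 with equal sums, 2 with library weights, 4 by DESeq2 and 0 to 2. Partners called were 1, against 2 with equal sums, 0 without the trend, 2 with robust variance, 2 with library weights, 9 by DESeq2 and 0 to 4. The cause of these differences was not tested. No paired analysis was possible because the labels give each mouse its own number and no litter, batch or day. The fewest reads behind a member in any library were 87, for Saa3.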
